A study of Mus musculus with 6 samples.

Results

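The TNF superfamily ligands and receptors were examined as 43 of the 52636 genes in the count table. They are the genes whose symbol begins with Tnfrsf or Tnfsf, together with Tnf, Lta, Ltb, Ltbr, Fas, Fasl, Cd40, Cd70, Ngfr and Edar. By role they comprised 17 ligands, 25 receptors and Tnfsf13os, an antisense RNA gene. RNA was sequenced from 3 biological replicates each of J110 cells, a line from mammary tumours of mice that carry AIB1 cDNA driven by the MMTV LTR, and SSM3 cells, a line from mammary tumours of genetically modified 129SvEv mice. No treatment is given for either line. Insulin and hydrocortisone were in both media, but J110 cells were grown with less serum and less CO2, and SSM3 cells with added glutamine, β-mercaptoethanol and holo-transferrin, so line and culture cannot be told apart.

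Ligands of this family are mostly membrane-anchored trimers that can be shed as soluble cytokines, and they cluster their receptors on the target cell. Receptors that carry a death domain recruit adaptors such as TRADD and FADD, which lead to NF-κB signalling or to caspase-8 and cell death. Receptors without one bind TRAF adaptors, and decoy receptors capture ligand without passing on a signal. In the mammary gland the family is best known for RANK (Tnfrsf11a), through which progesterone drives epithelial expansion by way of the ligand RANKL (Tnfsf11).

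Total counts ranged from 4200785 to 5416305 per library. Counts of Ncoa3, the mouse gene of AIB1, were 110, 106 and 102 for J110 and 181, 199 and 186 for SSM3. Ncoa3 counts were thus lower in the line from AIB1 transgenic mice, and tags from the 3′ end of the mouse transcript need not count the transgene, so Ncoa3 does not check the labels. Epcam had at most 7 counts in any library labelled J110 and at least 2376 in those labelled SSM3, and Cdh1, the gene of E-cadherin, at most 28 and at least 6019, and the keratin gene Krt19 averaged 18.6 and 7410 CPM, whereas the keratin genes Krt8 and Krt18 were abundant in both. Of 10 leukocyte markers, Itgam, Adgre1 and Nkg7 had no count in any library, and Ptprc, which encodes CD45, had 2. The summed level of the 10 was 29.2 to 37.0 CPM (counts scaled to library depth) in J110 and 14.7 to 17.4 CPM in SSM3, nearly all of it from Cd68 and Csf1r. Of the mesenchymal markers, Vim averaged 5140 CPM in J110 and 9.61 CPM in SSM3, Fn1 666 and 67.2 CPM, and Zeb1 28.1 and 0.0708 CPM. Zeb2 and Twist1 had at most 3 counts in any library. Cdh5, an endothelial marker, averaged 165 CPM in J110 and 0.142 CPM in SSM3. Of the other endothelial markers, Tie1 and Emcn had no count, Pecam1 at most 4 and Kdr at most 11 in a library. Genes outside the family were taken that had at least 100 CPM in the other line but no count in some library of the line itself. This selection favours low counts, so their summed level is biased low. Low counts on these genes were most widespread in SSM3 replicate 2, at 0.428% of the other line's level over 29 genes. In J110 the most were in replicate 3, at 0.218% over 46 genes.

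Promoters are printed for 6 members described below, chosen after their values were seen, to show what sequence lies at the start of genes higher and lower in SSM3. Each runs from 250 bases before to 50 bases after the RefSeq start (GRCm38.p6), and 33 of the 43 members were matched to one. Capitals mark letters found on either strand for the GAS (gamma-activated site) pattern TTCNNNGAA, the interferon response core (GAAA, any 2 bases, GAAA), the AP-1 pattern TGANTCA or the NF-κB pattern (GGGA, any 2 bases, TTCC), and no marked patterns overlap in these windows.
Tnfsf10 (chr3:27316827-27317126, forward strand): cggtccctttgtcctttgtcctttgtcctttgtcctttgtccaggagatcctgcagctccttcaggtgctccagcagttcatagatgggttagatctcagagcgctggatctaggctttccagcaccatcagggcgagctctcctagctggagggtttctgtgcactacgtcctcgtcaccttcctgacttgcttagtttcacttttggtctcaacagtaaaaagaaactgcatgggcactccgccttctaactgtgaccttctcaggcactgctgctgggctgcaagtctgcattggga
Tnfrsf18 (chr4:156026072-156026371, forward strand): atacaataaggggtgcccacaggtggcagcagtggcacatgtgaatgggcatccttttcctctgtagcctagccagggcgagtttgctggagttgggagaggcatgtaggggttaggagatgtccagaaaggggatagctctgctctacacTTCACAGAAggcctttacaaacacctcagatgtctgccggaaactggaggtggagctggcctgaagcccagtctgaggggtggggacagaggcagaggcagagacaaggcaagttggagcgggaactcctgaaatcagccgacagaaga
Tnfrsf1a (chr6:125349473-125349772, forward strand): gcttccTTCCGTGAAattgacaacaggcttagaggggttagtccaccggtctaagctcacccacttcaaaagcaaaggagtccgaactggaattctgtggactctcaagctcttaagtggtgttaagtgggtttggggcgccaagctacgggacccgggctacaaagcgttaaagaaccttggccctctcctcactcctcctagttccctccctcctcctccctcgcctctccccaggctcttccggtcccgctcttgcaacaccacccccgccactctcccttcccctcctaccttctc
Tnfrsf1b (chr4:145246821-145247120, reverse strand): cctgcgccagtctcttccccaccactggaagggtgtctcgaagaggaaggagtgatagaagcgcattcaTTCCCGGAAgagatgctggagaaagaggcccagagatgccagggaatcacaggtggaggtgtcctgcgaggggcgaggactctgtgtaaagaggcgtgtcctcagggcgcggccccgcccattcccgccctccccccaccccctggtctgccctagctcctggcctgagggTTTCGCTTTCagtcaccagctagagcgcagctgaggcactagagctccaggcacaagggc
Fas (chr19:34290409-34290708, forward strand): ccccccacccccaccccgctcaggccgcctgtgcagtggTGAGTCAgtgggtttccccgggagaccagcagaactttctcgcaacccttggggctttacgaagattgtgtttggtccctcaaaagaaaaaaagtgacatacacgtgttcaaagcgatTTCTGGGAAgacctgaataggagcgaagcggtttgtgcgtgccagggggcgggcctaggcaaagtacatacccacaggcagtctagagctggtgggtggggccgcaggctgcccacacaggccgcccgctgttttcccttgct
Tnfrsf23 (chr7:143685826-143686125, reverse strand): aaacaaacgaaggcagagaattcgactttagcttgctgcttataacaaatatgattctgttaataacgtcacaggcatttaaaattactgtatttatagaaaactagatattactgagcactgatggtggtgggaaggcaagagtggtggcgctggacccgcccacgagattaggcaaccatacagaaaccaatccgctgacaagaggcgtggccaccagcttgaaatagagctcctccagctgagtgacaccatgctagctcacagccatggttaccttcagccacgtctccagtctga

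The GAS pattern, which begins at position -99 from the start in Tnfrsf18, at -244 in Tnfrsf1a, at -181 in Tnfrsf1b and at -93 in Fas, was present in 9 of the 33 matched members and in 8.3% of all 32851 promoters of this length. Tnfrsf1b also held the interferon response core at -10, a pattern in 4 members and in 3.44% of all promoters. Fas held the AP-1 pattern at -211, a pattern in 6 members and in 7.81% of all promoters. In the windows of Tnfsf10 and Tnfrsf23 none of the 4 patterns was found. The NF-κB pattern was in the promoter of 1 member, Ltb, and in 1.47% of all promoters. Of the windows printed, that of Fas had the most CpG dinucleotides, 14, and that of Tnfrsf18 the fewest, 4, against a median of 7 over all promoters.

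Most of the family was at or near the detection limit. No count was found in any library for 9 members, which were Cd70, Edar, Fasl, Tnfrsf14, Tnfrsf17, Tnfsf14, Tnfsf18, Tnfsf4 and Tnfsf8. A further 13 never exceeded 3 counts in a library, among them Tnf, Lta and Ltb, the classical cytokines of the family, and Tnfsf11, the ligand of RANK. At these depths 3 counts, the upper limit that a count of 0 allows, correspond to 0.578 to 0.668 CPM, a limit that covers counting error only. The other 21 members had more than 3 counts in at least 1 library. In every J110 library 17 members were above 3 counts and in every SSM3 library 9 were, with 7 above it in all 6 libraries. CPM values use the total counts scaled by TMM factors.

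**Figure D1:**
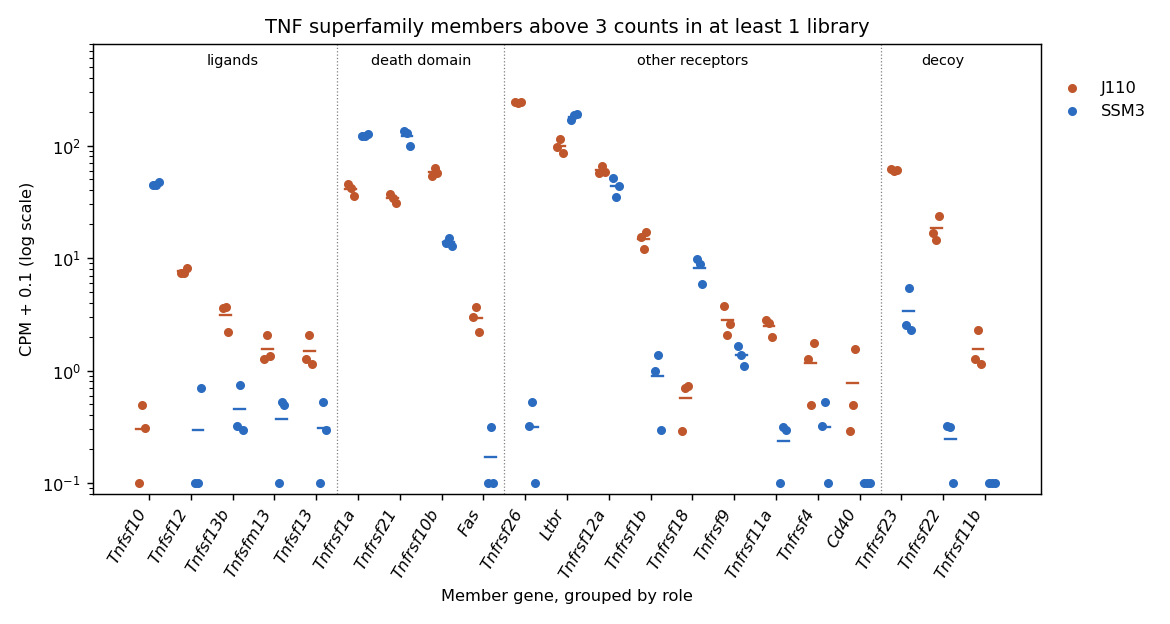
CPM plus 0.1 on a log axis for the 21 members with more than 3 counts in a library, by role, with each of the 3 J110 libraries and 3 SSM3 libraries as a point and the mean of a line as a bar. Tnfrsf26 lies between 239 and 246 CPM in J110 and under 1 CPM in SSM3, and Tnfsf10 shows the opposite order.

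Member counts were nearly all from receptors, which held 97.7% to 97.9% of them in J110 and 90.8% to 91.9% in SSM3. Summed over the 43 genes, the level was 638 to 673 CPM in J110 and 530 to 553 CPM in SSM3. The sums did not overlap with TMM scaling, but in CPM of the unscaled totals they did, at 587.2 to 636.4 for J110 and 556 to 592.9 for SSM3. In J110, Tnfrsf26 alone held 35.5% to 38.2% of the counts, whereas in SSM3 it held at most 0.0767%. There Ltbr (30.6% to 35.6%), Tnfrsf1a (22.0% to 23.9%) and Tnfrsf21 (18.8% to 24.3%) made up most of them.

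**Figure D2:**
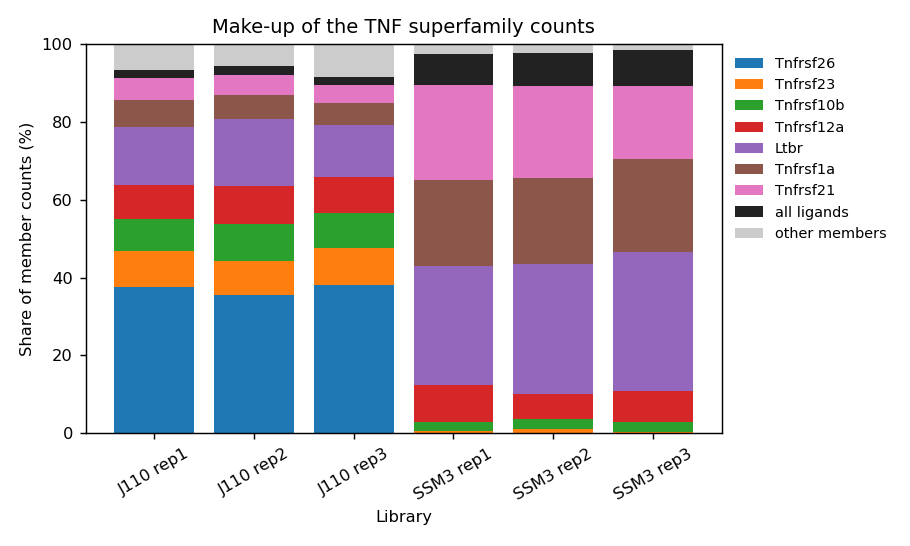
Stacked bars of the share of member counts (%) held by 7 receptors, by all ligands together and by the other members, for each of the 6 libraries. Tnfrsf26 holds 35.5% to 38.2% of the bar in J110 libraries and is not visible in SSM3 libraries.

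For the comparison of SSM3 with J110, 12 of the 43 members passed the filter on low counts and were tested. All 12 had an adjusted p below 0.05 with edgeR's quasi-likelihood test, 5 higher and 7 lower in SSM3, where 77.9% of all 12284 genes tested did (38.6% higher and 39.2% lower), and the libraries of the lines did not overlap for any of the 12, as for 79.6% of all genes tested. The filter also admits genes expressed in 1 line alone, and 5 of the 12 had at most 3 counts in every library of the other line, so neither this count nor the counts and medians over the 12 that follow support anything about the family. When only differences beyond 2-fold were tested with glmTreat, 10 members passed (4 higher, 6 lower), against 34.8% of all genes (17% higher and 17.7% lower). The median size of the log2 fold change was 4.11 over the 12 members and 0.84 over all genes tested. The signed medians were -1.28 and -0.014. Library size scaling in place of TMM moves the median of all genes to 0.16, and none of the 12 changed direction under it.

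**Figure D3:**
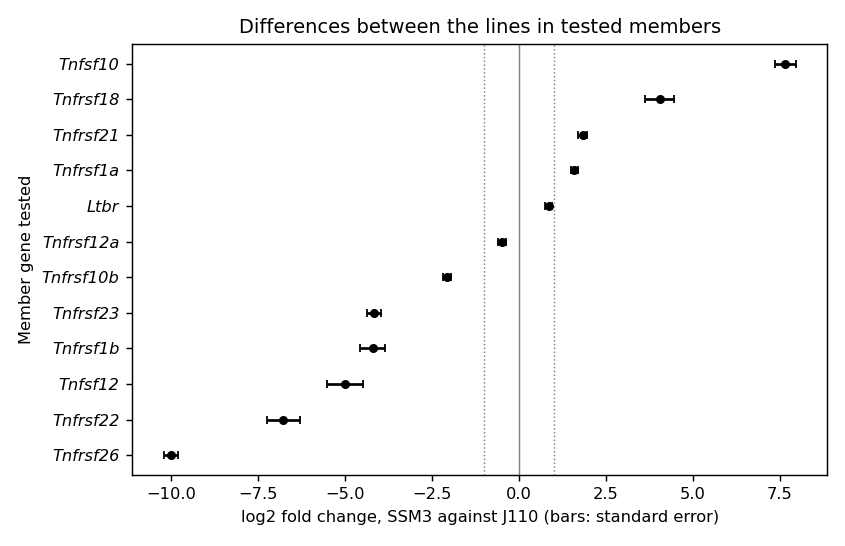
Log2 fold change, SSM3 against J110, of the 12 members tested, with the standard error as a bar and dotted lines at a 2-fold difference. Tnfsf10 is highest at 7.66 and Tnfrsf26 lowest at -10.01, and Ltbr and Tnfrsf12a lie within the dotted lines.

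Of the 17 ligands, 4 were above 3 counts in every J110 library and 1 in every SSM3 library, with none in both. Tnfsf10 (ENSMUSG00000039304, chromosome 3 of mm10 from 27317028 to 27342427), which encodes the death ligand TRAIL, had 0, 2 and 1 counts in J110 and 200, 210 and 236 in SSM3. It was thus present in each SSM3 library and at the detection limit in each J110 library. The ratio of pooled counts was 228 (95% exact interval 77.5 to 1110, counting error only), at a log2 fold change of 7.66 (SE 0.30, edgeR adjusted p = 6.65e-13), where SE is the standard error. Without J110 replicate 2, which holds 2 of the 3 J110 counts, the log2 fold change was 8.48.

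Tnfsf12 (ENSMUSG00000097328, chromosome 11 from 69686250 to 69695849), the gene of TWEAK, a weak inducer of death and a driver of proliferation, went the other way. It had 38, 37 and 39 counts in J110 and 0, 0 and 3 in SSM3. The ratio was 36.0 (95% exact interval 12.0 to 177), at a log2 fold change of -5.01 (SE 0.52, edgeR adjusted p = 1.97e-07). All SSM3 counts fell in replicate 3, and without it the fitted log2 fold change was -8.20, which depends on the prior count because SSM3 is then at 0. Tnfsf13b, the B cell survival factor BAFF, had 18, 18 and 10 counts in J110 and 1, 3 and 1 in SSM3. Its libraries did not overlap, and the ratio was 8.70 (95% exact interval 3.47 to 28.1). Tnfsf13, which encodes the related cytokine APRIL, had 6, 10 and 5 counts in J110 and 0, 2 and 1 in SSM3. The read-through gene Tnfsfm13 had 6, 10 and 6 and then 0, 2 and 2 counts, and it shares 60% of the exon bases of Tnfsf13 and 48.3% of those of Tnfsf12 on the same strand, so the values of these 3 genes are uncertain as single genes. BAFF and APRIL are typical products of myeloid cells. Cd68 was also higher in J110 (mean 18.5 against 1.42 CPM), Csf1r was near 14 CPM in both (14.3 and 14.2), and Ptprc was at 0 in J110. Itgam and Adgre1, defining markers of myeloid cells and macrophages, were at 0 in every library. Lyz2, a further gene of the leukocyte markers, had 6, 10 and 0 counts in J110 and none in SSM3. In bulk RNA fewer cells of a type and less RNA per cell cannot be told apart.

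Among the death domain receptors, Tnfrsf1a and Tnfrsf21 were higher in SSM3 and Tnfrsf10b was lower. Tnfrsf1a (ENSMUSG00000030341, chromosome 6 from 125349362 to 125362484), the main receptor for TNF, had 234, 212 and 172 counts in J110 and 551, 573 and 636 in SSM3. Its level rose from 41.0 ± 4.68 to 124 ± 2.57 CPM (SD, n = 3 each), at a log2 fold change of 1.59 (SE 0.095, edgeR adjusted p = 1.85e-10). Tnfrsf21 (ENSMUSG00000023915, chromosome 17 from 43016555 to 43089189), or death receptor 6, had 192, 173 and 147 counts in J110 and 603, 614 and 502 in SSM3. Every SSM3 library was above every J110 library, at 122 ± 18.8 against 34.0 ± 3.18 CPM (SD, n = 3 each), at a log2 fold change of 1.83 (SE 0.12, edgeR adjusted p = 5.21e-10).

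Tnfrsf10b (ENSMUSG00000022074, chromosome 14 from 69767472 to 69784411) encodes DR5, the mouse death receptor for TRAIL. It had 280, 320 and 271 counts in J110 and 61, 70 and 64 in SSM3, with no overlap. The level was 57.9 ± 4.81 against 13.7 ± 1.07 CPM (SD, n = 3 each), at a log2 fold change of -2.08 (SE 0.12, edgeR adjusted p = 1.92e-10). The TRAIL receptor was thus lower in the line in which TRAIL itself was higher, although it stayed above the detection limit in all 6 libraries. Fas, the receptor for FasL and an inducer of apoptosis, did not pass the filter. It had 15, 18 and 10 counts in J110 and 0, 1 and 0 in SSM3, a ratio of 40.7 (95% exact interval 6.92 to 1640). Ngfr, the neurotrophin receptor p75, had 2 counts in all, and Edar, the ectodysplasin receptor, had none.

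Both decoy receptors that could be tested, of 3, were lower in SSM3, as were 39.2% of all genes tested. Tnfrsf23 (ENSMUSG00000037613, chromosome 7 from 143665809 to 143685872) and Tnfrsf22 (ENSMUSG00000010751, chromosome 7 from 143634806 to 143649661) encode mouse decoys that bind TRAIL. Tnfrsf23 had 318, 301 and 291 counts in J110 and 11, 25 and 11 in SSM3. Its level was 60.5 ± 0.903 against 3.32 ± 1.73 CPM (SD, n = 3 each), at a log2 fold change of -4.18 (SE 0.20, edgeR adjusted p = 9.24e-12). Its SSM3 level was 3.62% to 8.77% of the J110 mean and highest in replicate 2. Tnfrsf22 had 87, 73 and 114 counts in J110 and 1, 1 and 0 in SSM3, a ratio of 130 (95% exact interval 35.5 to 1080), at a log2 fold change of -6.78 (SE 0.47, edgeR adjusted p = 1.12e-09). Between these neighbours 527 stretches of 75 bases, the read length, were identical, which is 12.6% of those of Tnfrsf22 and 13.1% of those of Tnfrsf23, so reads from these stretches cannot be assigned to either alone. Tnfrsf11b, which encodes osteoprotegerin, a secreted decoy for RANKL that also binds TRAIL, had 6, 11 and 5 counts in J110 and none in SSM3. It was at least 2.30-fold lower in SSM3, with SSM3 set at 3 counts per library.

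The same cluster holds Tnfrsf26 (ENSMUSG00000045362, chromosome 7 from 143607659 to 143628722), a receptor related to these decoys. Its 1277, 1208 and 1170 counts in J110 and 1, 2 and 0 in SSM3 gave the largest log2 fold change of the 12 members tested. The level was 243 ± 3.74 against 0.216 ± 0.212 CPM (SD, n = 3 each). The ratio of pooled counts was 1150 (95% exact interval 394 to 5590), at a log2 fold change of -10.01 (SE 0.21, edgeR adjusted p = 3.70e-16). Without SSM3 replicate 2 it was -10.86. Its SSM3 counts were 0.0916%, 0.175% and 0% of the J110 mean. The low counts on other genes abundant in J110 were 0.0437%, 0.428% and 0.0284% in the same libraries. Those genes were chosen for having no count in some SSM3 library, which biases these levels low.

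All 3 genes of this cluster lie within 78.2 kb on the reverse strand, and all were lower in SSM3, as were 39.2% of all genes tested. Tnfrsf22 and Tnfrsf26 had at most 2 counts in any SSM3 library and passed the filter through J110 alone. The count of 3 therefore supports nothing about the cluster. E230032D23Rik, a gene on the opposite strand that shares exon bases with Tnfrsf23 and Tnfrsf26 (4.14% and 3.33% of theirs), had 48, 59 and 59 counts in J110 and 1, 2 and 0 in SSM3. The strand setting of the counting is not given, so its reads cannot be told apart from those of its neighbours in the shared stretch. The nearest tested gene on one side, Cars, a tRNA ligase gene 7.57 kb away, had a log2 fold change of -1.25 (edgeR adjusted p = 1.34e-08). On the other side Osbpl5, 2.89 kb away, had 0.29 (edgeR adjusted p = 0.0585). Of the 8 nearest tested genes outside the cluster, Phlda2 was the lowest at -3.74 and Dhcr7 the highest at 1.82.

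**Figure D4:**
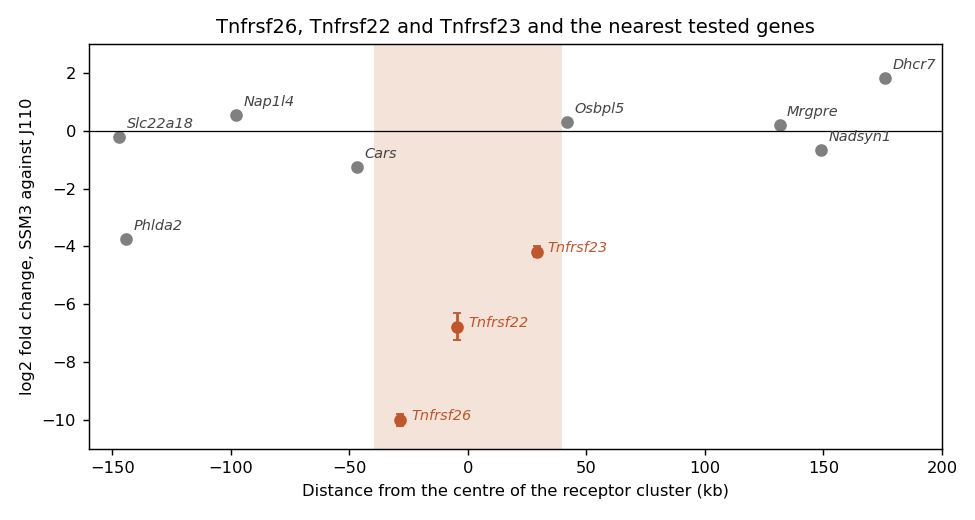
Log2 fold change, SSM3 against J110, by distance from the centre of the receptor cluster on chromosome 7 (kb), with the 3 receptors at the middle of each gene and standard errors as bars, and the 8 nearest tested genes outside it in grey at their nearer edge. The 3 receptors in the shaded 78.2 kb are at -10.01, -6.78 and -4.18, while Cars and Osbpl5 at its edges are at -1.25 and 0.29. E230032D23Rik, also within it and at -5.55, is not drawn.

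Receptors without a death domain changed in both directions. Ltbr (ENSMUSG00000030339, chromosome 6 from 125306571 to 125313885), the lymphotoxin β receptor of the non-canonical NF-κB pathway, had 507, 583 and 411 counts in J110 and 759, 874 and 949 in SSM3. All SSM3 libraries were higher, at 181 ± 10.6 against 99.6 ± 14.9 CPM (SD, n = 3 each), at a log2 fold change of 0.86 (SE 0.099, edgeR adjusted p = 6.48e-07). The change did not exceed 2-fold by glmTreat (adjusted p = 1). Tnfrsf12a (ENSMUSG00000023905, chromosome 17 from 23675445 to 23677468), the TWEAK receptor Fn14, had 298, 334 and 280 counts in J110 and 233, 165 and 218 in SSM3. It was the smallest change, from 60.6 ± 4.72 to 43.4 ± 8.42 CPM (SD, n = 3 each), at a log2 fold change of -0.48 (SE 0.12, edgeR adjusted p = 0.00198, and 1 by glmTreat).

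The second TNF receptor, Tnfrsf1b (ENSMUSG00000028599, chromosome 4 from 145213463 to 145246870), had 80, 60 and 81 counts in J110 and 4, 6 and 1 in SSM3. Its level was 14.7 ± 2.59 against 0.788 ± 0.545 CPM (SD, n = 3 each), at a log2 fold change of -4.20 (SE 0.36, edgeR adjusted p = 1.61e-08), opposite in direction to Tnfrsf1a. Tnfrsf18 (ENSMUSG00000041954, chromosome 4 from 156026164 to 156028895), which encodes GITR, a receptor best known on regulatory T cells, had 1, 3 and 3 counts in J110 and 44, 41 and 29 in SSM3. The ratio was 17.2 (95% exact interval 8.09 to 43.8), at a log2 fold change of 4.04 (SE 0.42, edgeR adjusted p = 1.91e-07). The T cell genes and Ptprc among the leukocyte markers were near 0 in these libraries, with 0 counts of Cd3e and 2 of Ptprc in SSM3. Its exons overlap those of Gm16008 on the other strand, which had no count.

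RANK was near the detection limit. Tnfrsf11a (ENSMUSG00000026321, chromosome 1 from 105780718 to 105847981) had 14, 13 and 9 counts in J110 and 0, 1 and 1 in SSM3, which is 2.38 ± 0.442 and 0.137 ± 0.119 CPM (SD, n = 3 each). The libraries did not overlap, and the ratio was 17 (95% exact interval 4.38 to 146). Its ligand Tnfsf11 had 2 counts in SSM3 replicate 2 and none elsewhere. RANK, its ligand and Tnfrsf11b, the decoy for that ligand, were therefore all at or under 3 counts in each SSM3 library. Tnfrsf9, which encodes the costimulatory receptor 4-1BB, had 19, 10 and 12 counts in J110 and 7, 6 and 5 in SSM3. Tnfrsf4, or OX40, had 6, 2 and 8 against 1, 2 and 0, with overlap at 2 counts, and Cd40 had 1, 2 and 7 against 0 in every SSM3 library.

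These 9 members with few counts, namely Fas, Tnfrsf11a, Tnfrsf11b, Tnfrsf9, Tnfrsf4, Cd40, Tnfsf13b, Tnfsf13 and Tnfsfm13, did not pass the filter as set. Fas and Tnfsf13b passed it and were called lower once the ribosomal RNA locus was left out of the library sizes, which gave 9 members lower in place of 7. All 9 were tested together when it was loosened to at least 1 count in any library. There 34 members were tested and 16 were called lower in SSM3, where 25.2% of the 22592 genes tested were called lower and 49.2% in either direction. Of the 22 members that entered, these 9 were the ones called. All but Tnfrsf9 exceeded 3 counts in J110 libraries alone, which largely fixes their direction, so it supports nothing. Tnfrsf11a had a log2 fold change of -3.84 (SE 0.75, edgeR adjusted p = 1.15e-06), Fas one of -4.89 (SE 0.80, edgeR adjusted p = 3.98e-09) and Tnfsf13b one of -3.01 (SE 0.58, edgeR adjusted p = 8.44e-07). With this filter the test gives far smaller p-values at a similar SE. For Ltbr the edgeR adjusted p was 2.88e-21 here and 6.48e-07 with the filter as set, so the 2 cannot be compared. Tnfrsf4 and Tnfrsf9 had the highest adjusted p of the 9, at 0.0319 and 0.0355. The remaining 13 members that entered were not called.

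Members often lie side by side in the genome, and 23 of the 43 fell into 9 clusters with gaps of at most 200 kb. Ltbr and Tnfrsf1a, within 55.9 kb on chromosome 6, were both higher in SSM3, as were 38.6% of all genes tested. Of Tnfrsf4 and Tnfrsf18, within 15.1 kb on chromosome 4, Tnfrsf18 was higher in SSM3 and the few Tnfrsf4 counts overlapped between the lines. Beside Tnfrsf1b, Tnfrsf8 had 2 counts in all. Clusters of ligands on chromosome 1 (Tnfsf4 and Tnfsf18) had no counts, and the Ltb, Tnf and Lta cluster on chromosome 17 had at most 3 counts of any gene in a library.

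Ligands and receptors were paired as textbook partners, 27 pairs in all, and a pair was taken as present when both genes were above 3 counts in all 3 libraries of a line. In J110 only the pair Tnfsf12 and Tnfrsf12a (TWEAK and Fn14) met this, and in SSM3 only Tnfsf10 and Tnfrsf10b (TRAIL and DR5). The TRAIL decoys Tnfrsf22 and Tnfrsf23 are not in these pairs, and Tnfrsf23 was also above 3 counts in every SSM3 library. The receptor was present in 13 pairs in J110 and in 8 in SSM3, and in 12 and 7 of those the ligand was at or under 3 counts in every library. Those with the receptor alone in both lines included TNF with Tnfrsf1a and Ltb with Ltbr. These counts describe RNA of cultured cells and no ligand from other cells or serum is measured by them.

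Of 6 superfamily genes and partners outside the rule, 3 could be tested and only Eda2r, a receptor for ectodysplasin A2, was called, where 77.9% of all genes tested were. It had 45, 67 and 78 counts in J110 and none in SSM3, at least 20.1-fold lower with SSM3 set at 3 counts per library. Relt, a receptor with a log2 fold change of -0.25 (edgeR adjusted p = 0.416), was not called. Cd27, the receptor for Cd70, and Cd40lg, the ligand of Cd40, had no counts.

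Downstream of the receptors, 42 of 43 listed signalling genes were tested, and 19 rose, 13 fell and 10 did not pass the test in SSM3. That is 32 of 42, near the background of 77.9%. With glmTreat 3 were higher and 6 lower by more than 2-fold, where 34.8% of all genes passed. The median log2 fold change was 0.16, against -0.014 for all genes. Ripk3, the kinase of necroptosis, had 59, 56 and 49 counts in J110 and 0, 1 and 0 in SSM3 (log2 fold change -6.83, SE 0.51, edgeR adjusted p = 2.67e-09). Without SSM3 replicate 2, which holds its 1 SSM3 count, the fitted value was -8.74, which then depends on the prior count because SSM3 is at 0. Traf5, an adaptor of several receptors described here, and Rel, an NF-κB subunit, followed at -3.84 and -1.90. Highest were Birc3, an inhibitor of apoptosis bound by TRAF2, at 1.96, Nfkbib, an inhibitor of NF-κB, at 1.63, and Adam10, a protease that sheds membrane proteins, at 1.32. A few more were chosen after their values were seen. Mlkl, the substrate of Ripk3, was at 0.92, Casp8, which cuts effector caspases, at 0.67 and Cflar, its inhibitor, at -1.17, all called. The adaptor Tradd and the kinase Ikbkb, at 0.11 and -0.01, did not pass the test.

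NF-κB target genes also lay on both sides. Of 24 listed, 11 were tested, with 5 higher, 5 lower and Ccl2 not called (log2 fold change -0.09, edgeR adjusted p = 0.840), where 77.9% of all genes tested were called, 38.6% higher and 39.2% lower. One of the 5 lower, Gadd45b, a stress response gene chosen after its values were seen, had overlapping libraries and a log2 fold change of -0.55 (SE 0.21, edgeR adjusted p = 0.029). It was no longer called with library size scaling or without J110 replicate 1, J110 replicate 2, SSM3 replicate 1 or SSM3 replicate 2 (edgeR adjusted p up to 0.159). Bcl3, an atypical IκB protein, had 6, 7 and 9 counts in J110 and 625, 538 and 741 in SSM3 (log2 fold change 6.49, SE 0.18, edgeR adjusted p = 9.82e-15). Ier3 and Icam1, a stress response gene and an adhesion molecule, followed at 2.28 and 2. Tnfaip3, which encodes A20, a brake on TNF signalling, had 133, 123 and 95 counts in J110 and 5, 3 and 5 in SSM3 (log2 fold change -4.63, SE 0.27, edgeR adjusted p = 1.26e-10). Ptgs2, the inducible cyclooxygenase, was lowest at -6.73, or -7.60 without SSM3 replicate 2, and Csf1, the macrophage growth factor, was at -3.81. Nfkbia, a feedback inhibitor chosen after its value was seen, was called higher, at 0.55 (SE 0.077, edgeR adjusted p = 6.03e-06).

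**Figure D5:**
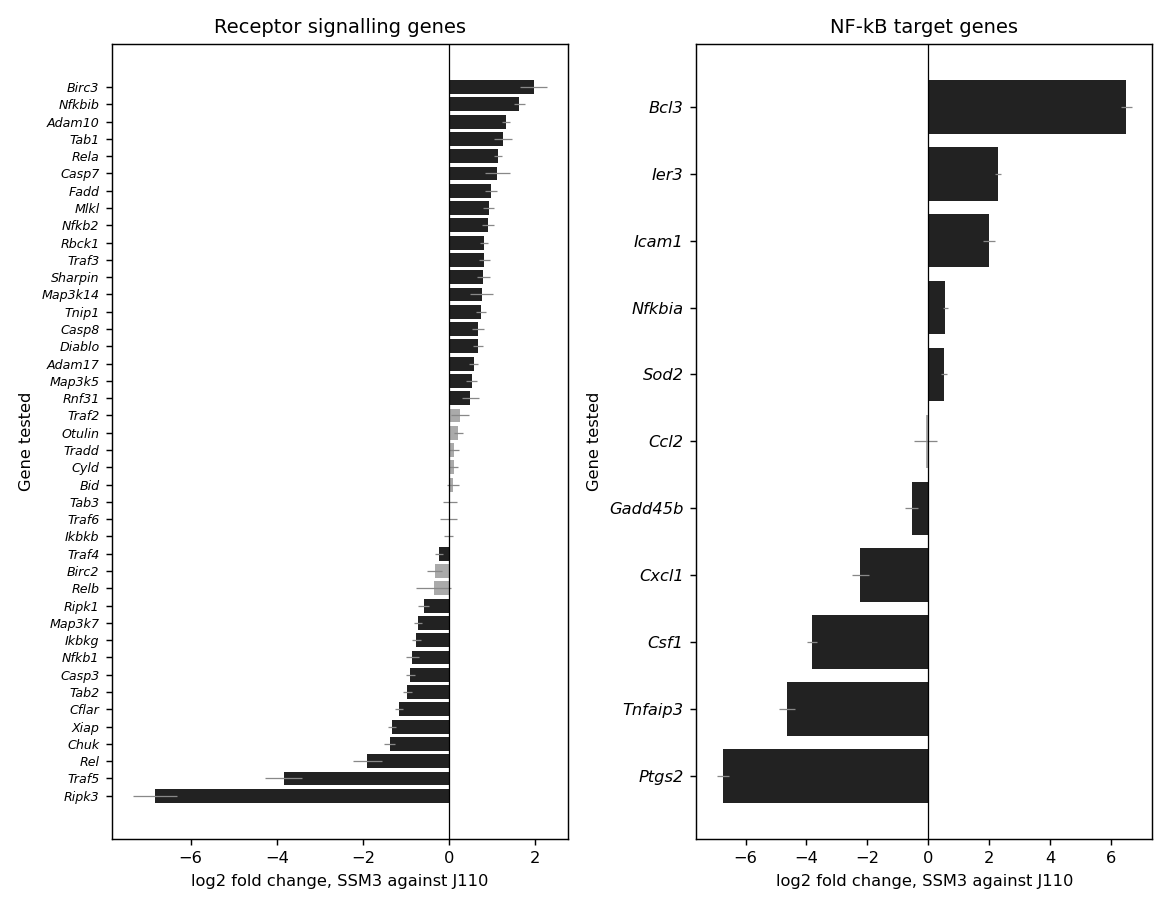
Bars of the log2 fold change, SSM3 against J110, with standard errors, for the 42 receptor signalling genes (left) and 11 NF-κB target genes (right) that were tested, dark where the adjusted p was below 0.05 and pale otherwise. Both panels hold bars on each side of 0, from Ripk3 at -6.83 to Birc3 at 1.96 on the left and from Ptgs2 at -6.73 to Bcl3 at 6.49 on the right.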

How the data were processed

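J110 and SSM3 RNA was made into QuantSeq 3′ libraries. According to the methods and the processing notes, the authors trimmed reads with cutadapt 2.1, mapped them to mm10 with HISAT2 2.0.4, and deposited raw counts per gene from featureCounts (Subread 2.0.0). The annotation release and strand setting are not given in the sources used here. Of the gene identifiers, 99.72% matched GENCODE vM21 (GRCm38), which gave symbols, coordinates and exon overlaps (bedtools 2.31.1).

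Genes passing filterByExpr were tested by edgeR 4.0.16 (R 4.3.3, glmQLFit, TMM factors), with p-values adjusted by Benjamini-Hochberg over 12284 genes at 0.05. The standard error is the log2 fold change divided by the square root of F. Total counts of 4200785 to 5416305 put 3 counts at 0.578 to 0.668 CPM. Intervals of ratios are exact binomial at 95% and cover counting error only. Replicates of a line differed by more than sampling noise (chi-square per degree of freedom 2.21 to 5.62). The fit was also run on simulated data with the same spread for every gene and few genes changed. Those settings differ from these data, so that run supports none of the values given here. Alternatives were DESeq2 1.42.0, limma-voom (limma 3.58.1), glmTreat, other scalings, filters and thresholds, a replicate block and leaving out each library. Members, lists and pairs were chosen with earlier results of these data known. Every member above 3 counts in a library is named, and of each other list the 3 called genes with the largest change in each direction. Neighbouring genes and the genes said to be so in the text were chosen after their values were seen. Some genes, and a modification carried by the mice of origin of SSM3, are not reported here.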

Additional observations from a re-analysis of the deposited data

How the results depend on the processing

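None of the 12 tested members changed direction under any of the 16 alternatives in which it was tested. Of 186 such values, 184 kept their call. The exceptions were Ltbr (log2 fold change 0.86) and Tnfrsf12a (-0.48), which were not past 2-fold by glmTreat. Members called higher numbered 5 and those called lower 7. Requiring at least 10 counts in every library left 3 higher and 3 lower, since 6 members were then tested. With at least 1 count in any library 16 were lower. Without the ribosomal RNA locus 9 were lower, with Fas and Tnfsf13b added. Leaving out each library in turn gave 5 higher throughout and from 7 to 11 lower, with 11 without SSM3 replicate 1, where Fas, Tnfrsf11a, Tnfrsf9 and Tnfsf13b also passed the filter. Among signalling genes glmTreat left 3 of the 19 higher and 6 of the 13 lower. Among NF-κB target genes it left 3 of the 5 higher, the looser filter gave 8 lower in place of 5 and the stricter 2. Their 5 lower became 4 with library size scaling, glmTreat or an adjusted p below 0.01, and 4 to 5 when each library was left out. With the replicate number as a block, 5 members were higher and 7 lower, as without it. Same-numbered libraries were correlated at 0.0118, 0.0155 and 0.0268 in their deviations, each the highest for its number. The other combinations lay between -0.0207 and 0.00756. All are weak, so whether the numbers pair the samples was not settled, and the main test did not pair them. Depth limits the 22 members with at most 3 counts in every library.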
